A study of Mus musculus with 16 samples.

Results

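The 10 NK and cytotoxic effector genes are Gzma, Gzmb, Prf1, Nkg7, Ncr1, Klrd1, Klrb1c, Ifng, Eomes and Tbx21. They were found in the deposited count table of 55536 genes by matching its Ensembl identifiers to gene symbols, and all 10 were present. They are taken by name, and the rule that finds their rows uses no measured value. The members themselves were chosen with earlier results of these data known. Together they cover the granule proteins of killer lymphocytes, receptors of natural killer (NK) cells, the cytokine interferon gamma and the T-box factors that drive these programmes.

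RNA-seq was done on mice labelled KLF K74R and on mice labelled KLF WT (wild type, WT). The titles of the K74R samples say KO instead. In the deposited counts the WT tumor columns carry an added letter R that the K74R tumor columns lack. The WT MSC columns read KCF where the K74R ones read KLF, and the meaning of either difference is not given. K74R stands for a lysine changed to arginine, in a gene that the labels call KLF with no number. Klf1, which encodes an erythroid transcription factor, is a gene of this family for which a K74R allele is known. The libraries were 3 K74R and 3 WT tumors, 3 K74R and 3 WT bone marrows, and 2 K74R and 2 WT samples labelled MSC. MC38 cells, a line from a mouse colon adenocarcinoma, formed the tumors, so the genotype is that of the host mouse and not of the injected cells. The labels give a tumor volume of at most 1000 mm3 for the tumors of both genotypes. The labels do not say whether replicates were separate mice, so p-values cover only the sample-to-sample spread, part of which may be technical. The question for these genes was how their expression differs between the genotypes in bone marrow and tumor, and between the tissues.

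NK cells and cytotoxic T cells kill by releasing granules into the contact with a target cell. Perforin, encoded by Prf1, lets granzymes enter the target, where granzyme B cleaves caspases and other substrates. Eomes and T-bet (Tbx21) direct the transcription of these genes, and interferon gamma, secreted by the same cells, acts on macrophages, tumor cells and stroma. In the marrow NK cells develop from lymphoid precursors and are a small population beside granulocytes and erythroid cells.

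The total count per library was between 14067259 and 18923751. Levels are given as CPM, library-size-normalised counts scaled by the trimmed mean of M-values (TMM) over all 16 libraries, in which 3 counts equal 0.148 to 0.222 CPM. Levels of different genes are compared as TPM, counts per exon length scaled so that each library has the same total. In bulk tissue, fewer cells of a type and less RNA per cell cannot be told apart. A missense change cannot be read from gene counts, so these do not check the genotype labels. Klf1 had 132, 102 and 85.6 CPM in K74R marrow, against 125, 103 and 137 CPM in WT marrow. In marrow the 11 T cell markers summed to 68.4 to 81.1 CPM in K74R libraries, against 45.4 to 55.0 CPM in WT libraries, and the 8 B cell markers to 889.5 to 1259 CPM, against 399 to 812 CPM. All 11 T cell markers and all 8 B cell markers had a positive log2 fold change there. In tumors the 3 pan leukocyte markers summed to 136 to 232 CPM in K74R libraries, against 224 to 277 CPM in WT libraries, and the 7 macrophage markers to 418 to 660 CPM, against 741 to 818 CPM. The T cell markers summed to 15.6 to 42.1 CPM in K74R tumors, against 29.6 to 42.1 CPM in WT tumors, and all 11 had lower means there (median log2 fold change -0.21). The 6 NK cell markers, which include Ncr1, Klrb1c and Eomes, went the other way in tumors. They summed to 89.8 to 119.9 CPM in K74R tumors, against 71.4 to 82.8 CPM in WT tumors. Most of that sum was Klra4, and 4 of the 6 had a positive and 2 a negative log2 fold change. None of these T cell, B cell, NK cell, pan leukocyte or macrophage markers passed edgeR's quasi-likelihood test between genotypes in either tissue, and the part of these shifts in the results was not tested. Of the 6 epithelial markers, 5 averaged under 1 CPM in the tumors of each genotype, with Epcam at most 0.594 CPM and Krt8 at most 0.346 CPM. The exception was Cdh1, with 74 to 135 counts in each tumor. The 6 summed to 4.26 to 5.65 CPM in K74R tumors, against 4.15 to 8.44 CPM in WT tumors. The MSC libraries had Col1a1 at 1060.1 to 5199 CPM, and also Csf1r, a macrophage marker, at 436 to 2031 CPM. Their 5 endothelial markers summed to 15.1 to 23.6 CPM in K74R MSC, against 286 to 1534 CPM in WT MSC.

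K74R tumor 2 stood apart in some of its leukocyte genes. It had the lowest Cd3e of the 6 tumors, at 0.294 CPM against 1.48 to 3.15 CPM in the others, the lowest Cd8a, at 0.766 CPM against 6.03 to 9.65 CPM, and the lowest Ptprc, the pan leukocyte gene for CD45, at 51.3 CPM. It was also the lowest tumor for Gzma, Nkg7, Klrb1c and Ifng. Its Prf1 at 50.5 CPM was not the lowest, its Gzmb at 75.8 CPM was the lowest but close to the 78.1 CPM of the next tumor, and its Eomes at 14.96 CPM was the highest of all. Other leukocyte genes were lowest in K74R tumor 3. Coro1a had 32.9 TPM there, against 36.0 TPM in K74R tumor 2, and Laptm5 had 51.9 against 55.2 TPM. Lck had 2.79 against 3.95 TPM, and the 7 macrophage markers summed to 418 against 588 CPM. These libraries were looked at after the values had been seen. The K74R over WT log2 fold changes in tumors were -0.06 for Nkg7 and -0.16 for Klrb1c over all libraries, and 0.21 and 0.30 without K74R tumor 2.

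In tumors the granule genes Gzmb and Prf1 were the highest of the set, and neither differed detectably between the genotypes. Gzmb, which encodes granzyme B (GRCm38 chr14:56258838-56262260, minus strand), had 82.0, 75.8 and 102 CPM in K74R tumors, against 78.1, 79.0 and 102 CPM in WT tumors. The genotypes overlapped almost completely. Prf1, which encodes perforin (chr10:61297833-61304680, plus strand), had 45.6, 50.5 and 68.0 CPM in K74R tumors, against 58.0, 71.8 and 98.6 CPM in WT tumors. The highest K74R tumor lay within the WT range and the other two lay under it. Marrow held far less of both. Gzmb had 0.739, 1.51 and 1.37 CPM in K74R marrow, against 3.62, 1.91 and 2.52 CPM in WT marrow, with no overlap. Prf1 had 1.14, 2.19 and 1.23 CPM in K74R marrow, against 1.58, 1.40 and 1.33 CPM in WT marrow, where the K74R libraries lay on both sides of the WT ones.

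Gzma and Nkg7, also granule genes, did not share that pattern. Gzma, which encodes granzyme A (chr13:113093825-113100981, minus strand), had 6.85, 0.766 and 1.69 CPM in K74R tumors, against 2.98, 2.67 and 2.51 CPM in WT tumors. The K74R tumors held both the highest and the lowest value and enclosed the WT ones. In marrow Gzma had 3.36, 3.63 and 2.80 CPM in K74R libraries, against 3.42, 3.44 and 3.26 CPM in WT libraries, which overlapped. Nkg7, a membrane protein of cytotoxic granules needed for their release (chr7:43437073-43438249, plus strand), was higher in every marrow than in any tumor. It had 6.45, 2.65 and 4.62 CPM in K74R tumors, against 5.11, 3.71 and 5.65 CPM in WT tumors. It had 28.3, 28.4 and 24.7 CPM in K74R marrow, against 34.4, 32.9 and 30.0 CPM in WT marrow, where all WT libraries lay above all K74R ones.

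The NK receptor genes were low in both tissues. Ncr1, which encodes the activating receptor NKp46 (chr7:4337724-4345164, plus strand), had 3.96, 3.83 and 1.09 CPM in K74R tumors, against 1.62, 1.98 and 2.91 CPM in WT tumors, and the third K74R tumor was the lowest of all. It had 2.69, 4.46 and 3.62 CPM in K74R marrow, against 1.78, 1.59 and 1.85 CPM in WT marrow, and the genotypes did not overlap there. Klrd1 encodes CD94, which pairs with NKG2 receptors that read MHC class I (chr6:129591782-129598775, plus strand). It had 8.78, 6.18 and 7.34 CPM in K74R tumors, against 6.32, 5.89 and 9.12 CPM in WT tumors, and 7.32, 4.80 and 7.04 CPM in K74R marrow, against 4.87, 5.22 and 4.75 CPM in WT marrow. Its genotypes overlapped in both tissues. Klrb1c encodes NK1.1, the antigen by which NK cells are recognised in several mouse strains (chr6:128778485-128789215, minus strand). It had 1.07, 0.118 and 0.544 CPM in K74R tumors, against 0.759, 0.594 and 0.627 CPM in WT tumors. It had 2.42, 3.36 and 3.21 CPM in K74R marrow, against 2.83, 2.55 and 1.93 CPM in WT marrow, with overlap in both tissues. Klrb1c overlaps Gm44511 on the same strand, so its reads may be split between the pair.

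The cytokine and the T-box factors diverged as well. Ifng, which encodes interferon gamma (chr10:118441046-118445892, plus strand), had 0.863, 0.471 and 1.20 CPM in K74R tumors, against 1.21, 1.34 and 1.597 CPM in WT tumors, and all K74R tumors were under all WT tumors. In marrow it had 1 count over the 3 K74R libraries, against 4 counts over the 3 WT libraries, all in WT library 2. It overlaps Gm49751 on the same strand. Eomes (chr9:118478212-118486132, plus strand) had 13.6, 14.96 and 14.5 CPM in K74R tumors, against 10.1, 9.65 and 13.7 CPM in WT tumors, where the highest WT tumor lay just within the K74R range. It had 2.02, 2.33 and 2.60 CPM in K74R marrow, against 1.18, 0.700 and 0.890 CPM in WT marrow, with no overlap. Eomes overlaps the antisense gene Gm33460, and the strand setting of the counting was, like its annotation, not given in the sources used here. Tbx21 (chr11:97098071-97115331, minus strand) had 0.965, 0.530 and 0.598 CPM in K74R tumors, against 0.860, 0.445 and 0.741 CPM in WT tumors. It had 0.470, 0.617 and 0.888 CPM in K74R marrow, against 0.789, 1.46 and 0.742 CPM in WT marrow, and its genotypes overlapped in both tissues.

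**Figure D1:**
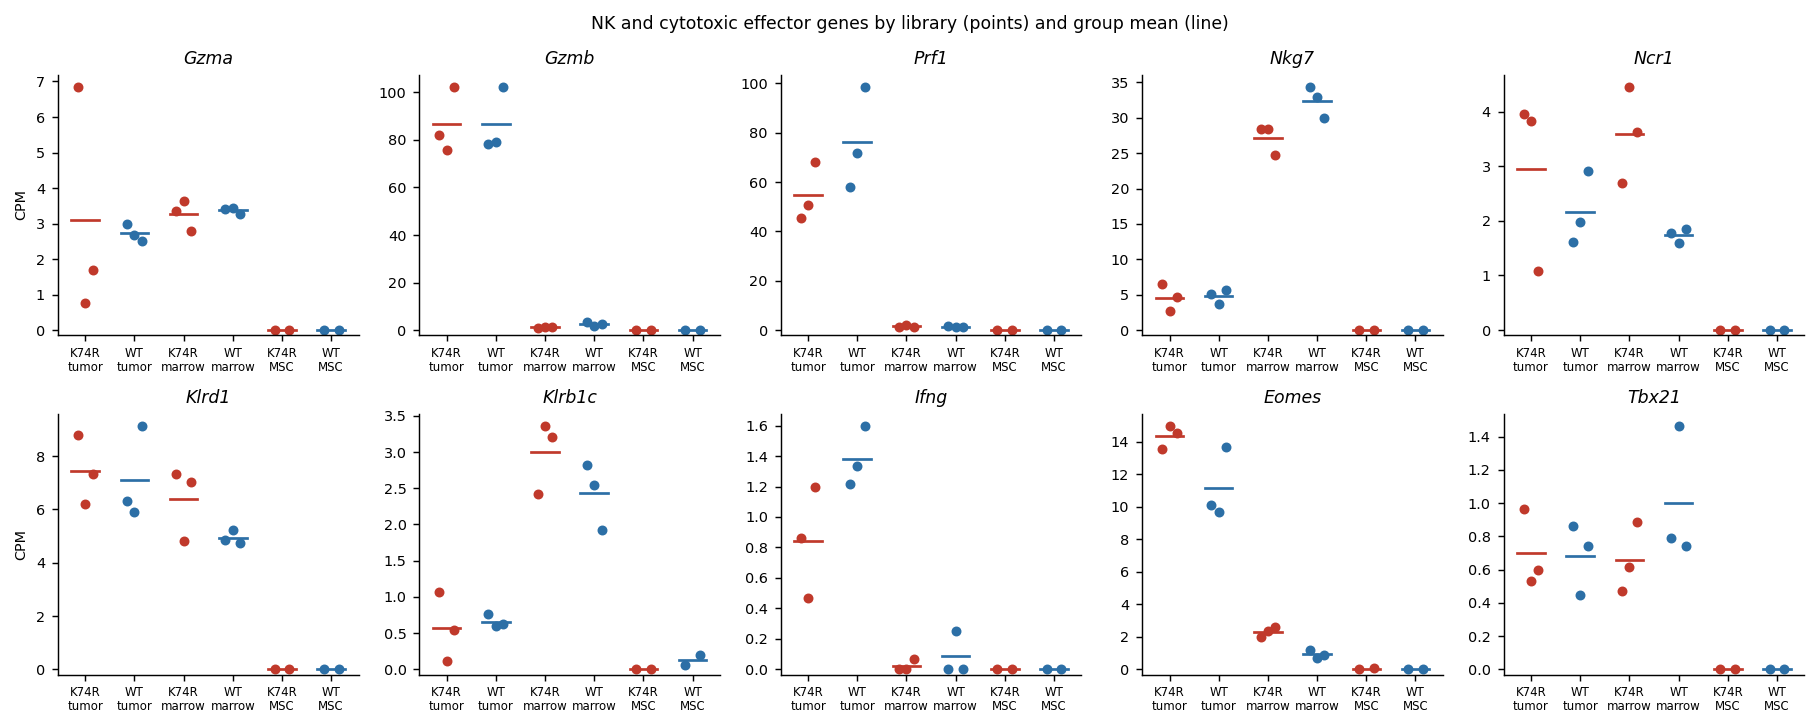
TMM-scaled CPM (y axis, linear, a scale of its own in each panel) of the 10 genes by group (x axis); points are libraries, 3 a group in tumor and marrow and 2 in MSC, and lines are group means. Gzmb, Prf1, Ifng and Eomes stand highest in tumors, Nkg7 and Klrb1c in marrow, and no member reaches above 0.204 CPM in MSC.

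The promoters of Gzmb and Prf1, the genes highest in tumors, are shown beside those of Gzma and Ncr1, whose levels in tumors and marrow overlapped. Each run is the 250 bases before the RefSeq transcription start on GRCm38.p6, read in the direction of the gene, and capitals mark matches to the motifs searched. They lie at chr14:56262335-56262584 on the minus strand for Gzmb, chr10:61297586-61297835 on the plus strand for Prf1, chr13:113100982-113101231 on the minus strand for Gzma and chr7:4337465-4337714 on the plus strand for Ncr1.
Gzmb: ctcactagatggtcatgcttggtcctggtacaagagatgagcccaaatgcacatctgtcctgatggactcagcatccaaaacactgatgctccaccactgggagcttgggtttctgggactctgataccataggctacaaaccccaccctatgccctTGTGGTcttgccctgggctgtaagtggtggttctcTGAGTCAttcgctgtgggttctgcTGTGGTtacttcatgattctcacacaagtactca
Prf1: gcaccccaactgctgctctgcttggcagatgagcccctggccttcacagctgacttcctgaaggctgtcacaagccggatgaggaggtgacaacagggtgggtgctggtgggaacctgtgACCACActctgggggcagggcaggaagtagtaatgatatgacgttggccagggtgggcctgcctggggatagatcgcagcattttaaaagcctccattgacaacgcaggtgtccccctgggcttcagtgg
Gzma: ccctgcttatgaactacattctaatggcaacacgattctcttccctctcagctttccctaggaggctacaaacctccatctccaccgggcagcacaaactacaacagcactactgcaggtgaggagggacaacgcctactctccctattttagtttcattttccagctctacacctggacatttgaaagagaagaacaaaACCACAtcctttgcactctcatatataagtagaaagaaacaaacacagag
Ncr1: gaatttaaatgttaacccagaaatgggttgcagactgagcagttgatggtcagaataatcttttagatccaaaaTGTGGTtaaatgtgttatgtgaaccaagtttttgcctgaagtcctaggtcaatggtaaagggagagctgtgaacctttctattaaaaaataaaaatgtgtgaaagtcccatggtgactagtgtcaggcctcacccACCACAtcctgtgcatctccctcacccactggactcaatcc
The motifs were TGTGGT (Runx factors), GGTGTGA (T-box factors), CCACACCC (the CACCC box that KLF factors bind), TGACTCA (AP-1) and TTCNNNGAA (GAS, the STAT element), each searched on both strands. RefSeq gave such a run for 9 of the 10 members, all but Klrd1. The Runx letters occurred in 6 of 9, namely Gzma, Gzmb, Prf1, Nkg7, Ncr1 and Klrb1c, against 4614 of all 32851 promoters of the same length. The T-box letters occurred in Nkg7 alone (3.3% of all promoters), the AP-1 letters in Gzmb alone (4.5%) and the GAS letters in Nkg7 and Ifng (7.0%), while the CACCC letters occurred in none of the 9 (3.2%). The Runx letters thus stood before Gzmb and Prf1, which were higher in tumors, and also before Nkg7 and Klrb1c, which were higher in marrow. A match is a description of letters in this window and not a bound site.

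In the MSC libraries the set was at or near 0. In K74R MSC 9 of 10 members had no count in either library, and Eomes had 1 count in library 2. In WT MSC 8 of 10 members had no count, Gzmb had 1 count in library 1, and Klrb1c had 1 and 3 counts. The highest of these values was 0.204 CPM, for Klrb1c in WT library 2. A count of 0 in an MSC library allows up to 0.178 to 0.204 CPM, which covers counting error only. Of the 11 T cell markers 7 were likewise at 0 in all 4 MSC libraries. These were Cd3d, Cd3e, Cd3g, Cd8a, Cd8b1, Trbc1 and Trbc2. Cd4, Cd28, Trac and Lck did have counts there. Cd4 had 310 and 104 counts in K74R MSC, against 14 and 27 in WT MSC. Cd28 had 193 and 349 counts in K74R MSC, against 983 and 548 in WT MSC. The 11 markers summed to 30.0 to 30.1 CPM in K74R MSC, against 40.7 to 62.4 CPM in WT MSC.

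Per exon length the order of the set differed between tissues. In tumors Gzmb led with 212 ± 26.8 TPM and Prf1 followed with 88.5 ± 21.8 TPM (SD, n = 6 libraries of both genotypes). Klrd1 had 20.01 ± 3.71 TPM, Nkg7 18.1 ± 5.34 TPM, Eomes 10.8 ± 2.11 TPM, Gzma 10.3 ± 7.77 TPM, Ncr1 5.90 ± 2.87 TPM and Ifng 3.00 ± 0.971 TPM. Tbx21 at 0.980 ± 0.297 TPM and Klrb1c at 0.737 ± 0.384 TPM closed the order. Each of Gzmb, Prf1 and Ifng exceeded the next gene in all 6 tumors, whereas Klrd1 exceeded Nkg7 in 4 of 6 and Eomes exceeded Gzma in 3 of 6, within their spread. In marrow Nkg7 led with 91.5 ± 11.9 TPM, ahead of Klrd1 with 12.5 ± 3.07 TPM and Gzma with 9.25 ± 0.719 TPM, and each exceeded the next in all 6 libraries. Ncr1 had 4.87 ± 2.17 TPM, Gzmb 3.79 ± 1.96 TPM, Klrb1c 2.59 ± 0.605 TPM, Prf1 1.604 ± 0.389 TPM, Eomes 1.10 ± 0.577 TPM, Tbx21 0.949 ± 0.438 TPM and Ifng 0.124 ± 0.234 TPM. Some neighbours in this order split by genotype. Ncr1 exceeded Gzmb, and Eomes exceeded Tbx21, in all 3 K74R and in 0 of 3 WT marrows, while Gzmb exceeded Klrb1c in 0 of 3 K74R and in all 3 WT marrows. Among all genes above 0 in tumors, Gzmb ranked 656 of 29690 by mean TPM and Prf1 1965, while in marrow they ranked 11571 and 14128 of 28468.

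Tumors and marrow were then compared within each genotype. Gzmb, Prf1, Ifng and Eomes rose in tumors against marrow in both genotypes, Nkg7 and Klrb1c fell, and Gzma, Ncr1, Klrd1 and Tbx21 did not pass the test in either. The test was edgeR's quasi-likelihood test on the 12 marrow and tumor libraries with Benjamini-Hochberg (BH) adjustment over 16917 genes and a threshold of 0.05. The tissues differ in most genes. Within K74R 80.7% of genes passed, 40.9% higher and 39.8% lower in tumors, and within WT 78.2% passed, 39.2% higher and 39.0% lower. The 6 of 10 members that passed are therefore a share under that of all genes, and their directions, 4 higher and 2 lower, carry no more than the values of each gene. Leukocyte markers moved too: the 3 pan leukocyte markers were all lower in tumors in both genotypes, with sums of 136 to 232 CPM in K74R tumors against 1736 to 1765 CPM in K74R marrow. The 11 T cell markers summed to 15.6 to 42.1 CPM in K74R tumors, against 68.4 to 81.1 CPM in K74R marrow, and to 29.6 to 42.1 CPM in WT tumors, against 45.4 to 55.0 CPM in WT marrow. Within K74R 1 of them was higher in tumors (Cd3g) and 5 were lower, and within WT 3 were higher (Cd8a, Cd8b1 and Cd3g) and 3 lower. The part of these markers in the results was not tested.

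Gzmb was 6.12 higher on the log2 scale in K74R tumors than in K74R marrow (SE 0.25, adjusted p = 4.54e-11 by edgeR) and 4.96 higher in WT tumors than in WT marrow (SE 0.22, adjusted p = 1.32e-10). Prf1 was 5.12 higher within K74R (SE 0.27, adjusted p = 7.43e-10) and 5.66 higher within WT (SE 0.28, adjusted p = 3.05e-10). Eomes was 2.58 higher within K74R (SE 0.20, adjusted p = 3.47e-08) and 3.53 higher within WT (SE 0.23, adjusted p = 5.09e-09). For these 3 genes every tumor was above every marrow of the same genotype. Ifng passed with adjusted p = 0.000532 within K74R and 0.000384 within WT by edgeR, at log2 fold changes of 4.79 and 3.79 that rest on few marrow counts. They were 6.84 without K74R marrow 3 and 7.53 without WT marrow 2, the libraries that held all marrow counts of their genotype. Its pooled tumor count over its pooled marrow count, scaled to library size, gave a ratio of 37.6 within K74R (95% exact counting interval 6.43 to 1518, from 47 and 1 counts) and 15.2 within WT (5.73 to 57.3, from 79 and 4 counts). Nkg7 was lower in tumors, by -2.60 on the log2 scale within K74R (SE 0.23, adjusted p = 1.51e-07) and -2.80 within WT (SE 0.23, adjusted p = 7.10e-08). Klrb1c was also lower, by -2.38 within K74R (SE 0.46, adjusted p = 0.000275) and -1.92 within WT (SE 0.45, adjusted p = 0.00148). Its K74R value depended on the tumor libraries, with -3.14 without K74R tumor 1 and -1.91 without K74R tumor 2.

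The members that did not pass had small differences or wide spread. Tbx21 differed by 0.05 within K74R (SE 0.44) and -0.60 within WT (SE 0.42) on the log2 scale, and Ncr1 by -0.33 (SE 0.39) and 0.26 (SE 0.41). Gzma differed by -0.11 within K74R (SE 0.52), and without K74R tumor 1, its highest library, by -1.42 with an adjusted p of 0.00162 in the same edgeR test. Klrd1 differed by 0.17 within K74R (SE 0.22) and by 0.47 within WT (SE 0.22, adjusted p = 0.0672 by edgeR). That Klrd1 value passed with library sizes alone as scaling (0.64, adjusted p = 0.0187; this scaling raised the members' values by a median of 0.15 within K74R and 0.17 within WT), without WT tumor 2 (0.59, adjusted p = 0.0414) and without K74R marrow 2 (0.47, adjusted p = 0.0479).

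**Figure D2:**
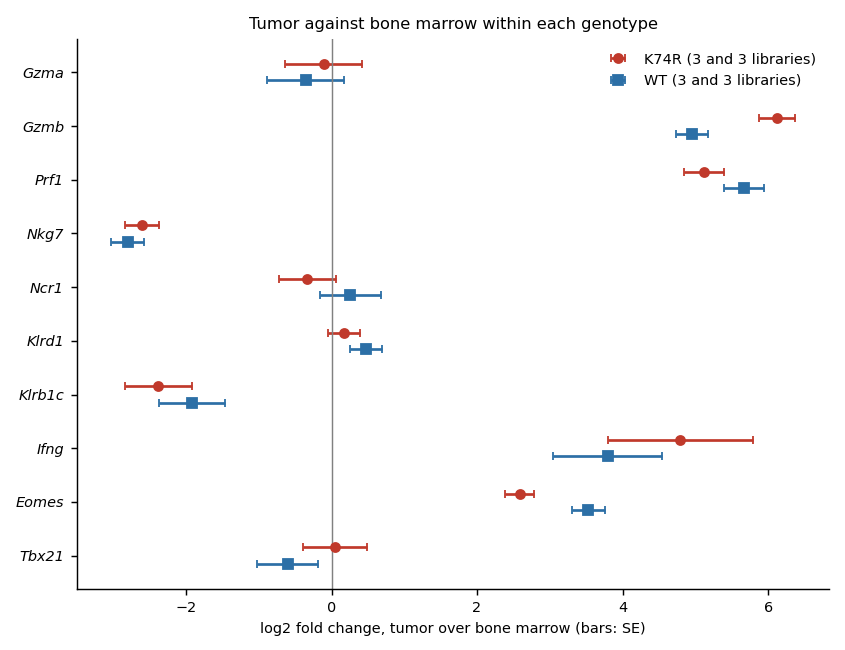
Log2 fold change of tumor over bone marrow (x axis) for each gene (y axis) within K74R (circles) and within WT (squares), 3 and 3 libraries each; bars are the SE of the edgeR fit. Gzmb, Prf1, Ifng and Eomes lie to the right of 0 and Nkg7 and Klrb1c to the left in both genotypes; the Ifng points rest on 1 and 4 counts in marrow.

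Ratios between the levels of genes were also compared between the tissues. They were chosen after the levels had been seen, are given without a test, and in part restate the tissue differences above. Some rest on few counts, with 11 to 55 counts of Gzmb in each marrow library and 5 of Cd3e in K74R tumor 2. Gzmb over Prf1, in TPM, was 2.70 to 3.24 in K74R tumors, against 1.16 to 2.00 in K74R marrow, and 1.87 to 2.42 in WT tumors, against 2.45 to 4.12 in WT marrow. The tissues were separate within each genotype and in opposite order, higher in tumors within K74R and higher in marrow within WT. Over all libraries of a tissue, Gzmb over Nkg7 was 8.09 to 18.2 in tumors, against 0.0166 to 0.0669 in marrows. Gzmb over Gzma was 8.38 to 69.4 in tumors, against 0.154 to 0.741 in marrows. Gzmb over Cd3e, a chain of the T cell receptor complex, was 74.01 to 731 in tumors, against 0.579 to 6.90 in marrows. The ratios to Nkg7, Gzma and Cd3e thus did not overlap between the tissues over both genotypes.

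K74R and WT were then compared within marrow. The receptor gene Ncr1 and the factor gene Eomes had higher values in every K74R marrow, Gzmb and Nkg7 had lower values in every K74R marrow, and none of the members passed the test. In edgeR's quasi-likelihood test on the 6 marrow libraries, 115 of 14872 genes passed with BH adjustment, which is 0.773%, and 0 of the 9 members tested did. Ifng was not tested because it fell under the filter on low counts. At an unadjusted p under 0.05 there were 2 members with higher and 2 with lower values, where 9.80% of all genes were higher and 7.99% lower, and DESeq2 and limma-voom also called none. Libraries of the genotypes did not overlap for 22.5% of all genes, against 4 of the 9 members.

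Eomes had a log2 fold change of 1.32 in K74R over WT marrow (SE 0.32, adjusted p = 0.101 by edgeR) and Ncr1 1.04 (SE 0.27, adjusted p = 0.123). Both passed with no filter on low counts (adjusted p = 0.0374 for Eomes and 0.0478 for Ncr1). Gzmb had -1.15 (SE 0.37, adjusted p = 0.169) and Nkg7 -0.26 (SE 0.09, adjusted p = 0.204). Klrd1 had 0.37 (SE 0.21), Klrb1c 0.30 (SE 0.26), Prf1 0.08 (SE 0.34), Gzma -0.05 (SE 0.22) and Tbx21 -0.60 (SE 0.44), all with overlapping libraries. The signs of Prf1 and Gzma were not stable, with -0.28 for Prf1 without K74R marrow 2 and 0.04 for Gzma without K74R marrow 3. The 6 NK cell markers, which include Ncr1, Klrb1c and Eomes, summed to 10.7 to 13.6 CPM in K74R marrow, against 6.16 to 7.58 CPM in WT marrow. The 8 neutrophil markers summed to 19953 to 21996 CPM in K74R marrow, against 23638 to 25771 CPM in WT marrow. The part of either shift in these values was not tested.

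Other genes of the pathway in marrow also stayed short of the threshold. Across 9 lists of related genes, no gene passed in K74R against WT marrow by edgeR, out of 109 tested. At an unadjusted p under 0.05, 17 had higher and 10 lower values, where 9.80% of all genes were higher and 7.99% lower. The share of lower values was near that of all genes. Of the 30 NK receptors and adaptors 23 were tested and 17 had a log2 fold change above 0. Their median was 0.20, against -0.00052 over all genes, and 5 had higher and 1 lower values at an unadjusted p under 0.05, beside the all-gene shares given above. Il2rb, the receptor chain shared by interleukins 2 and 15, had 18.3, 15.8 and 14.97 CPM in K74R marrow, against 11.3, 12.3 and 11.05 CPM in WT marrow (0.50 on the log2 scale, SE 0.12, adjusted p = 0.108 by edgeR). Slamf7, an activating receptor also found on plasma cells, had 0.86 (SE 0.25, adjusted p = 0.142). Of the transcription factors 12 of 13 were tested with a median of 0.20, and Ets1, needed for NK cell development, had 0.40 (SE 0.11, adjusted p = 0.124) while Zeb2, which acts in NK cell maturation, had 0.28 (SE 0.10, adjusted p = 0.199). Il18r1, the receptor for interleukin 18, had 0.57 (SE 0.14, adjusted p = 0.107), and Jak3, the kinase of the common gamma chain, had -0.40 (SE 0.12, adjusted p = 0.147).

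The granule, interferon and ligand lists held values of both signs in marrow. Of the 14 granule biogenesis genes 9 had a negative log2 fold change. At an unadjusted p under 0.05, 1 was higher and 4 were lower, where 9.80% of all genes were higher and 7.99% lower. Ctsc, the protease that activates granzymes, had -0.61 (SE 0.17, adjusted p = 0.135 by edgeR), and Cst7, an inhibitor of such proteases, had -0.39 (SE 0.11, adjusted p = 0.133). Both are also expressed in myeloid cells. Among interferon gamma genes, Ciita, the activator of MHC class II genes, had 0.62 (SE 0.14, adjusted p = 0.0909), and B2m, the MHC class I light chain, had -0.33 (SE 0.09, adjusted p = 0.133). The chemokine Ccl3 had 1.05 (SE 0.36, adjusted p = 0.184) and S1pr1, a receptor for exit from tissues, 0.41 (SE 0.22, adjusted p = 0.359). Raet1e, a ligand of the NKG2D receptor, had -1.46 (SE 0.51, adjusted p = 0.194 by edgeR). That value rests on few counts, with 9, 2 and 8 in K74R marrow against 22, 13 and 18 in WT marrow. Cadm1, a ligand of CRTAM, had 0.59 (SE 0.17, adjusted p = 0.140 by edgeR). Without WT marrow 2, S1pr1 was 0.73 and passed (adjusted p = 0.0263 by edgeR), as did Slamf7 (0.0126), Ctsc (0.0156), Ets1 (0.0340) and Ciita (0.0360). Fas had 0.22 (SE 0.18) and Tnfrsf10b, the mouse TRAIL receptor, -0.60 (SE 0.29), and the granzyme Gzmm 0.45 (SE 0.44). DESeq2 called 6 of these named genes, namely Slamf7, Ets1, Il18r1, Ciita, Ctsc and B2m, edgeR with no filter on low counts called the same 6 and Cadm1, and limma-voom called none. The genes had been named for the smallest p of their list in this same comparison, so these calls are not separate support. DESeq2 and edgeR with no filter also called more of all genes than the main test, as given below.

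K74R and WT were next compared within tumors. Eomes had somewhat higher values in K74R tumors, Ifng and Prf1 somewhat lower, and Gzmb a difference under its SE, with no member past the threshold. In edgeR's test on the 6 tumors 6 of 14779 genes passed, which is 0.0406%, and 0 of the 10 members. At an unadjusted p under 0.05 there was 1 member, Eomes, with a higher value, where 5.05% of all genes were higher and 6.19% lower, and DESeq2 and limma-voom called none. Libraries of the genotypes did not overlap for 16.3% of all genes, against 1 of the 10 members, Ifng. Eomes had a log2 fold change of 0.37 in K74R over WT tumors (SE 0.15, adjusted p = 0.421 by edgeR). Ifng had -0.69 (SE 0.38, adjusted p = 0.517) and Prf1 -0.46 (SE 0.21, adjusted p = 0.458), and Prf1 passed with no filter on low counts (adjusted p = 0.000184). With a library left out Ifng ranged from -1.04 (without K74R tumor 3) to -0.40 (without K74R tumor 2), and Prf1 from -0.67 (without K74R tumor 3) to -0.24 (without WT tumor 3). Gzmb had 0.02 (SE 0.14), Klrd1 0.08 (SE 0.21), Tbx21 0.05 (SE 0.41), Nkg7 -0.06 (SE 0.32), Klrb1c -0.16 (SE 0.60) and Ncr1 0.45 (SE 0.45). Gzma had 0.20 (SE 0.63), and without K74R tumor 1 it had -1.11.

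**Figure D3:**
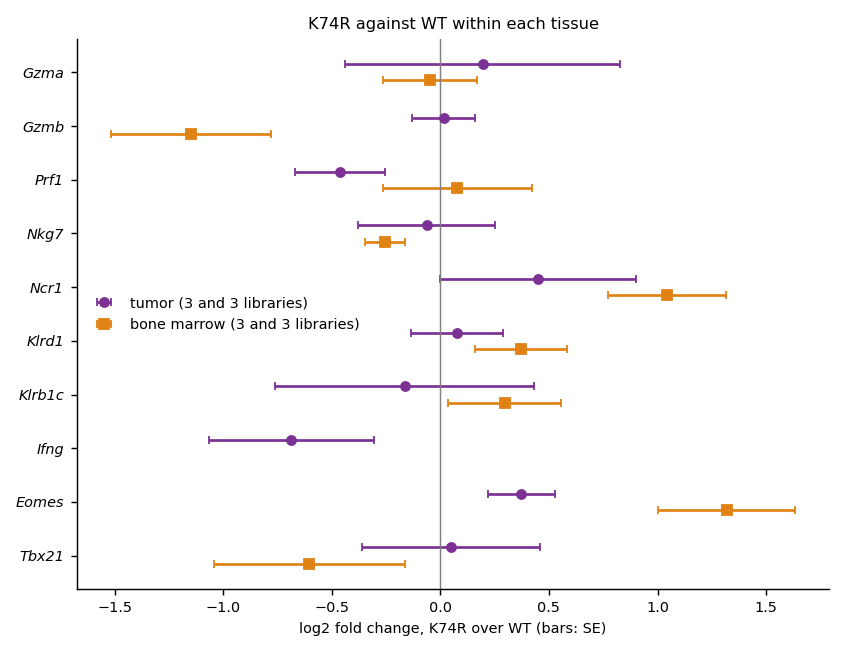
Log2 fold change of K74R over WT (x axis) for each gene (y axis) in tumor (circles) and bone marrow (squares), 3 and 3 libraries each; bars are the SE of the edgeR fit. The marrow values of Eomes at 1.32, Ncr1 at 1.04 and Gzmb at -1.15 lie farthest from 0, the tumor values lie between -0.69 and 0.45, and Ifng has no marrow value because it was not tested there.

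The genotype effect in tumor was also set against that in marrow in a single model. For 0 of 10 members did the difference pass in edgeR's test, against 73 of 16917 genes, which is 0.432%, with 1 member higher and 1 lower at an unadjusted p under 0.05, where 7.87% of all genes were higher and 8.78% lower. Gzmb had the largest difference of the 10, 1.17 on the log2 scale (SE 0.37, adjusted p = 0.156 by edgeR). DESeq2 called this difference (1.15, adjusted p = 0.0283), as did edgeR with no filter on low counts (1.17, adjusted p = 0.000289). Eomes had -0.95 (SE 0.31, adjusted p = 0.161), and limma-voom called no member. The differences of the other 8 members lay between -0.59 and 1.00, with adjusted p of 0.567 or more.

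Other granzymes had higher means than Gzmb in the tumors per exon length, of 599 TPM for Gzmg, 548 TPM for Gzmd, 497 TPM for Gzmc, 322 TPM for Gzmf and 231 TPM for Gzme, against 212 TPM for Gzmb (n = 6). Gzmc, Gzmd and Gzmg exceeded Gzmb in all 6 tumors, Gzmf in 5 and Gzme in 4. Mice have a cluster of granzyme genes beside Gzmb, of which Gzmc to Gzmg are close copies, so that reads may be split between them and their separate values are uncertain. Gzmg had 53.2, 130.3 and 209 CPM in K74R tumors, against 121, 172 and 252 CPM in WT tumors. Gzmd had 60.2, 137 and 211 CPM in K74R tumors, against 107, 160.0 and 231 CPM in WT tumors. In both genes K74R tumor 1, with the highest Gzma, was the lowest tumor. Gzmc averaged 126 ± 18.7 CPM in K74R tumors and 128 ± 55.9 CPM in WT tumors (SD, n = 3 each). Gzmf averaged 73.1 ± 52.2 CPM in K74R tumors and 97.0 ± 41.8 CPM in WT tumors, and Gzme 54.9 ± 27.2 CPM in K74R tumors and 66.4 ± 25.9 CPM in WT tumors. In K74R over WT tumors none of the 6 granzymes tested passed, with a median log2 fold change of -0.26, and Gzmg had -0.45 (SE 0.44) and Gzmf -0.38 (SE 0.50). With a library left out Gzmg ranged from -0.996 (without K74R tumor 3) to -0.07 (without K74R tumor 1) and Gzmf from -1.13 to 0.020 without the same libraries, and both passed with no filter on low counts (adjusted p = 2.62e-05 for Gzmg and 0.00219 for Gzmf by edgeR).

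Marrow held almost none of that cluster. Gzmd, Gzme, Gzmf and Gzmg had no count in any of the 6 marrow libraries. Set against 3 counts over the group, Gzmd was at least 1977-fold higher in K74R tumors than in K74R marrow and at least 2418-fold higher in WT tumors than in WT marrow. In K74R and in WT the same bounds were at least 1896-fold and 2649.6-fold for Gzmg, 1063-fold and 1409.7-fold for Gzmf, and 798-fold and 966-fold for Gzme. Gzmm, a granzyme of NK cells and innate lymphocytes, went the other way. It had 0.294 ± 0.104 CPM in K74R tumors against 0.999 ± 0.282 CPM in K74R marrow (SD, n = 3 each, adjusted p = 0.00514 by edgeR). Within WT it also passed as lower in tumors, with 0.101, 0.396 and 0.171 CPM, against 0.592, 0.509 and 1.11 CPM in marrow. These values rest on few counts, with 4 to 7 in each K74R tumor and 2 to 8 in each WT tumor. In the MSC libraries, where Gzma and Prf1 were at 0, Gzme had 55.7 and 86.4 CPM in K74R libraries, against 44.8 and 53.6 CPM in WT libraries. Gzmd had 2.78 and 3.42 CPM in K74R MSC, against 2.72 and 6.80 CPM in WT MSC. Gzme thus reached levels in MSC that overlapped those in tumors, which were 27.6 to 94.5 CPM.

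**Figure D4:**
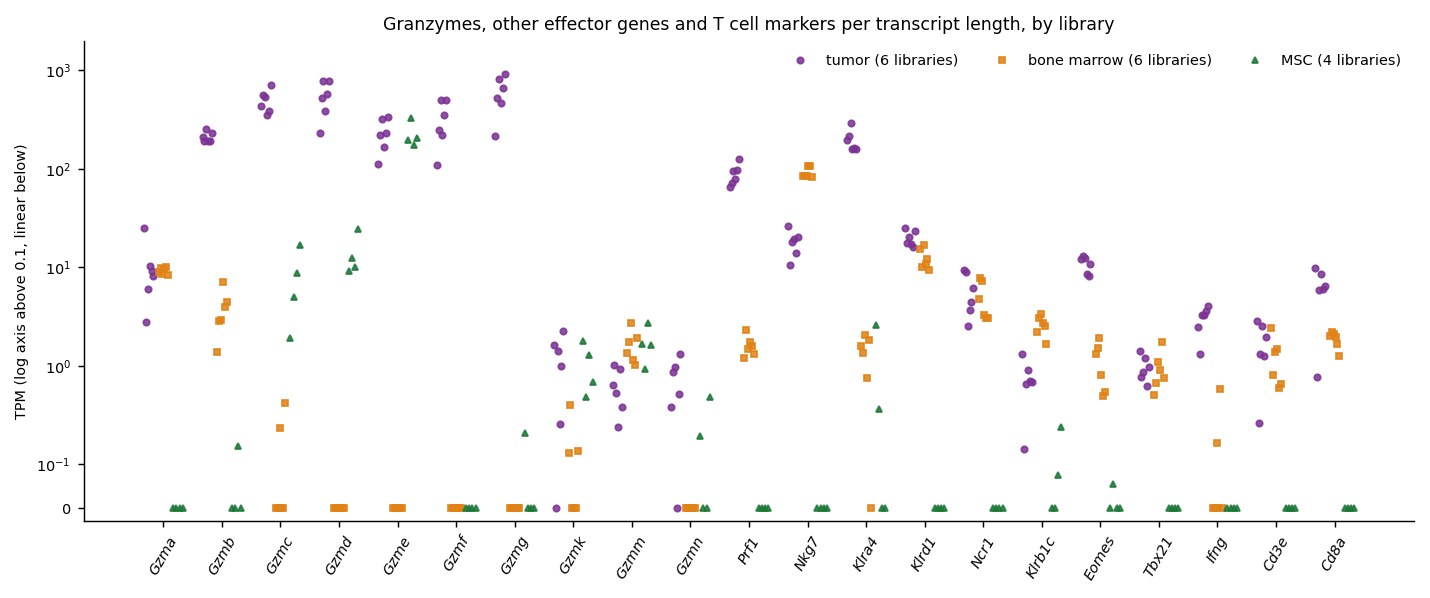
TPM (y axis, logarithmic above 0.1 and linear below) of granzymes, other effector genes and the T cell markers Cd3e and Cd8a (x axis), a point for each library, in 6 tumors, 6 bone marrows and 4 MSC. Gzmb to Gzmg and Prf1 lie far above Cd3e and Cd8a in tumors, Nkg7 is highest in marrow, and the Gzme values of MSC and tumors overlap.

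Other cytotoxic lymphocyte genes in tumors gave a mixed picture. Klra4, an activating Ly49 receptor with close copies in its family, had 67.0, 74.3 and 101 CPM in K74R tumors, against 55.9, 58.6 and 61.1 CPM in WT tumors (0.48 on the log2 scale, SE 0.15, adjusted p = 0.353 by edgeR). It was at most 0.820 CPM in marrow. Klra8, another Ly49 receptor, had 0.558, 0.648 and 0.326 CPM in K74R tumors, against 1.16, 0.990 and 1.82 CPM in WT tumors (-1.36, SE 0.40, adjusted p = 0.340). No gene of the 9 lists passed between K74R and WT tumors by edgeR, out of 117 tested. At an unadjusted p under 0.05, 5 had higher and 16 lower values, where 5.05% of all genes were higher and 6.19% lower. Of the NK receptors and adaptors 24 were tested and 12 had a log2 fold change above 0. Their median was -0.0072, against 0.0049 over all genes.

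Among the remaining lists Ctsc had the smallest p in tumors. It had 243, 175 and 160.2 CPM in K74R tumors, against 327, 323 and 328 CPM in WT tumors (-0.75 on the log2 scale, SE 0.13, adjusted p = 0.194 by edgeR). Serpinb9, the inhibitor of granzyme B, had 43.8, 39.5 and 39.0 CPM in K74R tumors, against 45.7, 45.1 and 46.1 CPM in WT tumors (-0.16, SE 0.07, adjusted p = 0.470). Of the interferon gamma receptor and target genes 17 of 23 had a log2 fold change under 0, and the median was -0.08. Cxcl11, a chemokine that draws CXCR3-bearing lymphocytes, had 7.11, 6.54 and 6.20 CPM in K74R tumors, against 2.58, 2.13 and 3.71 CPM in WT tumors (1.25, SE 0.23, adjusted p = 0.206). Il12rb1, a chain of the interleukin 12 receptor, had -0.80 (SE 0.17, adjusted p = 0.231) and Il2rg, the common gamma chain, -0.35 (SE 0.12, adjusted p = 0.365). Zeb2 had -0.42 (SE 0.09, adjusted p = 0.254) and Prdm1, which encodes Blimp-1, -0.63 (SE 0.21, adjusted p = 0.370). H2-T23, the mouse Qa-1 molecule that CD94 and NKG2A read, had -0.56 (SE 0.13, adjusted p = 0.267) and Cadm1 -1.37 (SE 0.34, adjusted p = 0.288). Tnf had -0.70 (SE 0.26, adjusted p = 0.393), Ccl5 0.34 (SE 0.14, adjusted p = 0.420), Itga1 -0.32 (SE 0.11, adjusted p = 0.379) and Tnfrsf10b 0.12 (SE 0.09). DESeq2 called 5 of these named genes in tumors, namely Ctsc, Zeb2, Il12rb1, Cxcl11 and H2-T23, and limma-voom called none. As in marrow, the genes had been named for a small p in the same comparison, so such calls are not separate support. EdgeR with no filter on low counts called these 5 as well as Klra4, Prdm1 and Cadm1, and without K74R tumor 1 edgeR called Ctsc (adjusted p = 0.00583), Il12rb1 (0.0475) and Cadm1 (0.0175). Several are also macrophage genes, and the lower macrophage and pan leukocyte marker sums of K74R tumors given above stand beside these values; their part was not tested.

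Between tissues most genes of the interferon gamma list were higher in tumors. Of its 23 genes 17 were higher and 5 lower in tumors than in marrow, within K74R and within WT, with median log2 fold changes of 1.20 and 1.505, against all-gene medians of 0.02 and 0.0063. For this and the lists below, 40.9% of all genes were higher and 39.8% lower in tumors within K74R, and 39.2% and 39.0% within WT. Cxcl9, another CXCR3 ligand, averaged 64.5 ± 37.8 CPM in K74R tumors and 6.68 ± 2.55 CPM in K74R marrow (SD, n = 3 each). Cxcl10 averaged 299.6 ± 28.5 CPM in K74R tumors and 1.32 ± 0.587 CPM in K74R marrow, and 293 ± 47.9 CPM in WT tumors and 0.832 ± 0.253 CPM in WT marrow. Of the 29 NK receptors and adaptors tested, 5 were higher and 14 lower in tumors within K74R, and 7 were higher and 13 lower within WT. Of the 14 granule biogenesis genes 3 were higher and 7 lower within K74R, and 5 were higher and 8 lower within WT. Serpinb9 rose by 1.51 within K74R (SE 0.10, adjusted p = 5.50e-09 by edgeR) and 1.66 within WT (SE 0.10, adjusted p = 2.26e-09). The ligand genes Pvr and Raet1e also rose in tumors in both genotypes, Pvr by 4.27 within K74R (SE 0.18) and 3.73 within WT (SE 0.18).

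The genes whose pattern was most like that of the set were named by the Pearson correlation of log2(CPM + 0.5) with the mean of the members tested. Over the 6 marrow libraries these were Brwd3, Ttc39a, Fam102b, Atf2 and Zfp27, with r from 0.97 to 0.99, among 12318 genes of which 68 had r over 0.9. Over the 6 tumors they were Wipi2, Stk4, Fignl1, Brca1 and Cbx5, with r from 0.97 to 0.99, among 12246 genes of which 75 had r over 0.9. Spearman's rho was 0.943 to 1 in marrow and 0.886 to 1 in tumors, and r without the 2 libraries farthest from the median was 0.950 to 0.990 in marrow and 0.941 to 0.996 in tumors. The genes were named for their r over these same libraries, so these further values are not separate support. With 6 points that share depth and genotype, the likeness is a description of these libraries only. Among the members themselves, the 36 pairs of the 9 tested in marrow had both signs, and the median r was -0.03, while the median over the 45 pairs in tumors was 0.28.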

How the data were processed

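The deposited values are whole-number counts per gene for 16 libraries (bone marrow, MSC and MC38 tumor). Per the submitters' processing notes, the authors used FastQC, MultiQC, Trimmomatic 0.38, HISAT2 2.1.0 and featureCounts 1.6.0 on GRCm38. The annotation release, strand setting and handling of reads with several matches were not given in the sources used here. RNA was extracted with TRIzol and libraries made with a KAPA mRNA kit, per the labels' protocols.

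Samples were grouped by labelled genotype and tissue. Identifiers were matched to GENCODE M21, and TPM used its exon lengths. In R 4.3.3 with edgeR 4.0.16, genes were kept with filterByExpr and scaled by TMM. The quasi-likelihood test was applied to each tissue alone between genotypes, and to 12 libraries in 4 groups between tissues and for the difference of genotype effects, with Benjamini-Hochberg adjustment over all genes tested and a threshold of 0.05. An SE is the log2 fold change divided by the square root of F. The steps were tested on simulated data. DESeq2 1.42.0, limma-voom (limma 3.58.1), other scalings and filters, the replicate block and leaving out each library were alternatives. MSC was not tested. Intervals and floors of 3 counts cover counting error only.

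All members were named, and from each of 9 related lists up to 2 genes with the smallest p where none passed. A gene taken by this rule is not reported here. Genes named between tissues only, and those with ratios, were chosen after their values were seen. The members and lists were chosen with earlier results of these data known. Of 223 list genes and markers 222 matched. Replicates of a group differed beyond sampling noise in all 14 pairs.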

Additional observations from a re-analysis of the deposited data

Results flagged for a closer look

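Gzme drew attention in the MSC libraries, which entered no test. It averaged 71.1 ± 21.7 CPM in K74R MSC and 49.2 ± 6.21 CPM in WT MSC (SD, n = 2 each), above the limit that a count of 0 allows, while Gzmb and Prf1 had at most 1 count in any MSC library. Gzme shares close sequence with Gzmc, Gzmd, Gzmf and Gzmg, of which Gzmd was the next highest in K74R MSC at 2.78 and 3.42 CPM, and Gzmf had no count there. The macrophage markers of the same libraries summed to 2108 to 3883 CPM in K74R MSC, against 6454 to 8255 CPM in WT MSC. Their endothelial markers summed to 15.1 to 23.6 CPM in K74R MSC, against 286 to 1534 CPM in WT MSC. The part of other cell types or of shared reads in the Gzme value was not tested.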

How the results depend on the processing

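No member lost its call under any alternative run that tested it; a filter of at least 1 CPM left 8 members to test in marrow and in tumors. With no filter on low counts 2 members passed in marrow (Ncr1 and Eomes), 1 in tumors (Prf1) and 1 for the difference of genotype effects (Gzmb), which DESeq2 also called (1 member). Between tissues 6 members passed in each genotype under nearly all alternatives, with 7 in WT by library size alone and 6 to 7 in each genotype when a library was left out.

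Counts over all genes moved more. In marrow 115 genes passed, with 875 under no filter, 518 by DESeq2, 60 with all 16 libraries in a single model, and 11 to 684 with a library left out (lowest without WT marrow 3, highest without WT marrow 2). In tumors 6 passed, with 810 under no filter, 195 by DESeq2, 13 with the replicate block, 0 in the single model, and 0 to 124 with a library left out (highest without K74R tumor 1). For the difference of genotype effects 73 passed, with 47 by library size alone, 1061 under no filter, 559 by DESeq2, 7 in the single model and 6 to 303 with a library left out.

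Signs turned where a value was small beside its SE. Gzma in tumors was -0.31 by limma-voom and -0.24 with the replicate block. Between tissues within K74R, Gzma was 0.042 by library size alone and Tbx21 -0.0013 by DESeq2. For the difference of genotype effects limma-voom gave -0.26 for Gzma and -0.24 for Ifng. With a library left out, marrow values ranged from -0.28 to 0.25 for Prf1 and -0.13 to 0.038 for Gzma. Tumor values ranged from -1.11 to 0.65 for Gzma, -0.045 to 0.29 for Klrd1, -0.25 to 0.26 for Tbx21, -0.38 to 0.21 for Nkg7, -0.93 to 0.30 for Klrb1c, -0.14 to 0.15 for Gzmb and -1.13 to 0.020 for Gzmf. Between tissues within K74R they ranged from -0.24 to 0.31 for Tbx21, -1.42 to 0.35 for Gzma and -0.59 to 0.067 for Ncr1. For the difference of genotype effects they ranged from -2.74 to 3.04 for Ifng, -1.07 to 0.70 for Gzma, -0.12 to 0.48 for Nkg7 and -1.23 to 0.0033 for Klrb1c. The cause was not tested.

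Samples with the same replicate number did not deviate together throughout (r from -0.127 to 0.387 in marrow and -0.0296 to 0.0991 in tumors), and the replicate block changed no call of a member, with 135 genes in marrow and 13 in tumors. Few counts limit these values: in marrow each library held 0 to 4 counts of Ifng, 7 to 23 of Tbx21, 11 to 55 of Gzmb, 11 to 38 of Eomes and 17 to 32 of Prf1, and in tumors 2 to 21 of Klrb1c, 8 to 28 of Ifng and 9 to 19 of Tbx21.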
